A study of Homo sapiens with 20 samples.

Results

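The genes described here are 35 genes of heme synthesis and of the red cell membrane and interior, chosen by symbol for what their proteins do. The choice was made with earlier results of these data known, so the shares below are not those of a list drawn up blind to them. Each symbol matched 1 Ensembl gene in both arms of the series, and all 35 passed the low-count filter, among 19224 genes tested with the drugs and 21285 tested in the excision arm. By role they are 7 heme synthesis enzymes, 7 genes of the band 3, ankyrin and Rh complex, 5 of the spectrin skeleton, 6 glycophorins and blood group carriers, 6 genes of erythropoietin signalling, globin folding and maturation, and 4 cytosolic enzymes.

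All 20 RNA-seq libraries come from K562, a human erythroleukemia line that carries an erythroid program and can be pushed towards hemoglobin synthesis. In the drug arm, wild-type cells were kept for 72 h with the vehicle DMSO, with 5 uM GSK343 (an EZH2 inhibitor) or with 100 uM X5050 (a REST inhibitor), or for 8, 24 or 72 h with both drugs at those doses. In the excision arm, CRISPR removed silencer 1 (S1KO), silencer 2 (S2KO) or both (DKO), and the control was empty vector cells (EV). The labels do not say whether the excised lines are clones or pools. Each of the 10 groups has 2 libraries, called biological replicates in the design text. DMSO was collected at 72 h only, so at 8 and 24 h the time in culture and the drugs cannot be told apart.

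Heme is built from glycine and succinyl-CoA by enzymes that alternate between mitochondrion and cytosol, from ALAS2, the erythroid form of the rate-limiting enzyme, to FECH, which inserts iron. The red cell membrane rests on a spectrin lattice tied to the bilayer by ankyrin, which holds the anion exchanger band 3 and the Rh proteins, and by protein 4.1, which holds glycophorin C. Many of these genes are switched on late in erythroid maturation, and GATA1 and KLF1 are known regulators of a large share of them.

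The 9 markers used to define K562, among them GATA1, TAL1, KLF1, TFRC and the fetal and embryonic globins, had counts in every group. Libraries held 22925617 to 38177320 gene counts for the drugs and 55913728 to 98507880 estimated counts for the excisions. Replicates stood apart in ways the groups do not explain. In EV, S1KO and S2KO alike, replicate 2 was below replicate 1 for 13 of the 35 genes and above it for 9, and the median size of the replicate difference was 0.43 on the log2 scale in EV and 0.11 in DKO. In the X5050 group, replicate 2 was lower for 31 of the 35 genes, by a median log2 of -0.41. These are bulk samples, so fewer cells of a type and less RNA per cell cannot be told apart.

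The stretches just upstream of transcription start show what several of these genes share in sequence. They are given for genes on which the excision results turn, as the 250 bases before a RefSeq start site (GRCh38.p14), written on the gene's strand, with GATA matches in capitals. A GATA match here means the letters AGATAA, the variant with T as the leading base (TGATAA), the variant with G as the closing base (AGATAG), the variant with both changes (TGATAG), or the reverse complement of any of these. The windows are ALAS2 at chrX:55030978-55031227 (minus strand), EPB42 at chr15:43221019-43221268 (minus), HEMGN at chr9:97938173-97938422 (minus), KEL at chr7:142962364-142962613 (minus) and RHD at chr1:25272236-25272485 (plus).
ALAS2: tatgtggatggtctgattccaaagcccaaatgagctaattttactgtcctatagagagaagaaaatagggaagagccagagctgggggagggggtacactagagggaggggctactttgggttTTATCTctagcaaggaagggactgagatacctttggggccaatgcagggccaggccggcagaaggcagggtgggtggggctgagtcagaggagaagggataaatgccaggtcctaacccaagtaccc
EPB42: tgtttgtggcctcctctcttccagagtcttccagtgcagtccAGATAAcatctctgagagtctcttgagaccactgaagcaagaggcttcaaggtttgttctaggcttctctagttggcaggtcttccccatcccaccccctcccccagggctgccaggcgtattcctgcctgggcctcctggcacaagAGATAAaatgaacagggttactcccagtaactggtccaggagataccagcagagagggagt
HEMGN: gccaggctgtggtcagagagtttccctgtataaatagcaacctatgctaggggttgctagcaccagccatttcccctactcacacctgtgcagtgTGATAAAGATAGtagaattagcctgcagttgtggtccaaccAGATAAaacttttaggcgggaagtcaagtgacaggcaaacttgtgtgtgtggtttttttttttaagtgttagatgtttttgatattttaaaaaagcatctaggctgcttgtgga
KEL: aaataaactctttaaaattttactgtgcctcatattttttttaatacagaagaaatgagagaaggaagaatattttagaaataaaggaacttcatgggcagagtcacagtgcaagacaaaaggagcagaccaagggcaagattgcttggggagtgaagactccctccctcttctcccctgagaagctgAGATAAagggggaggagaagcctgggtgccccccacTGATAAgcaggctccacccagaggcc
RHD: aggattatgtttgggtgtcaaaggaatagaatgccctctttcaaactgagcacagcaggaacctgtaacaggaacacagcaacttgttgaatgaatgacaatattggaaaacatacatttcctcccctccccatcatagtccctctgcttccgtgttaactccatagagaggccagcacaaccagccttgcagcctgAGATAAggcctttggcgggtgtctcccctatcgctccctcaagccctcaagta

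The ALAS2 window held 1 match, EPB42 and KEL held 2 each, HEMGN 3 and RHD 1. Of the 27 genes of the set with a window in the RefSeq table, 19 (70.4%) held such a match in at least 1 window, against 26.2% of all 27305 genes in that table. A CACCC-like motif searched as CCNCNCCC on both strands was found in 22 of the 27 (81.5%), against 56.4% of all genes. Among the 11 windowed genes that rose in DKO cells, described next, 9 held a GATA match and TMOD1 and FAM210B did not, while among the other 16 windowed genes 10 held it. These are letter matches in a short window, and the files here hold no binding data.

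Before any excision the genes spanned a wide range of levels. On the length-corrected TPM scale, the EV means ran from 0.0314 for CA2, 0.0829 for SLC4A1 and 0.132 for EPB42 to 187 for RHAG, 252 for UROD and 309 for BLVRB. Carbonic anhydrase 2 (CA2), band 3 (SLC4A1) and protein 4.2 (EPB42) were thus the lowest of the 35. The enzymes of the heme pathway were not at 1 level either: UROD, which decarboxylates uroporphyrinogen, stood at 252 TPM ± 78.7 (SD), FECH at 36.2 ± 7.01 and ALAS2 at 5.93 ± 0.524. In DKO cells the mean TPM of ALAS2 was 81.5 ± 19.6 and that of FECH 63.8.

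Excision of both silencers was followed by higher levels of 18 of the 35 genes and lower levels of none, at an adjusted p under 0.05 in edgeR's quasi-likelihood test with Benjamini-Hochberg adjustment over all genes. That is 51.4% of the set, where 5.41% of all tested genes rose and 3.35% fell. The median log2 change was 1.00 over the 35 genes and 0.01 over all tested genes. With the trend on GC content removed and the replicate number as a block, 19 genes of the set were higher and 1 lower. The calls lay in every role group: 3 of 7 heme enzymes, 4 of 7 genes of the band 3 and Rh complex, 3 of 5 skeleton genes, 3 of 6 glycophorin and blood group genes, 3 of 6 maturation genes and 2 of 4 cytosolic enzymes. The DKO libraries held 55913728 and 59444567 estimated counts, against 76457904 to 98507880 in the other excision libraries. Replicate differences over all tested genes correlated at -0.084 between DKO and EV, and at 0.488 to 0.622 among EV, S1KO and S2KO. A difference in handling or between lines cannot be told apart from the excision.

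**Figure D1:**
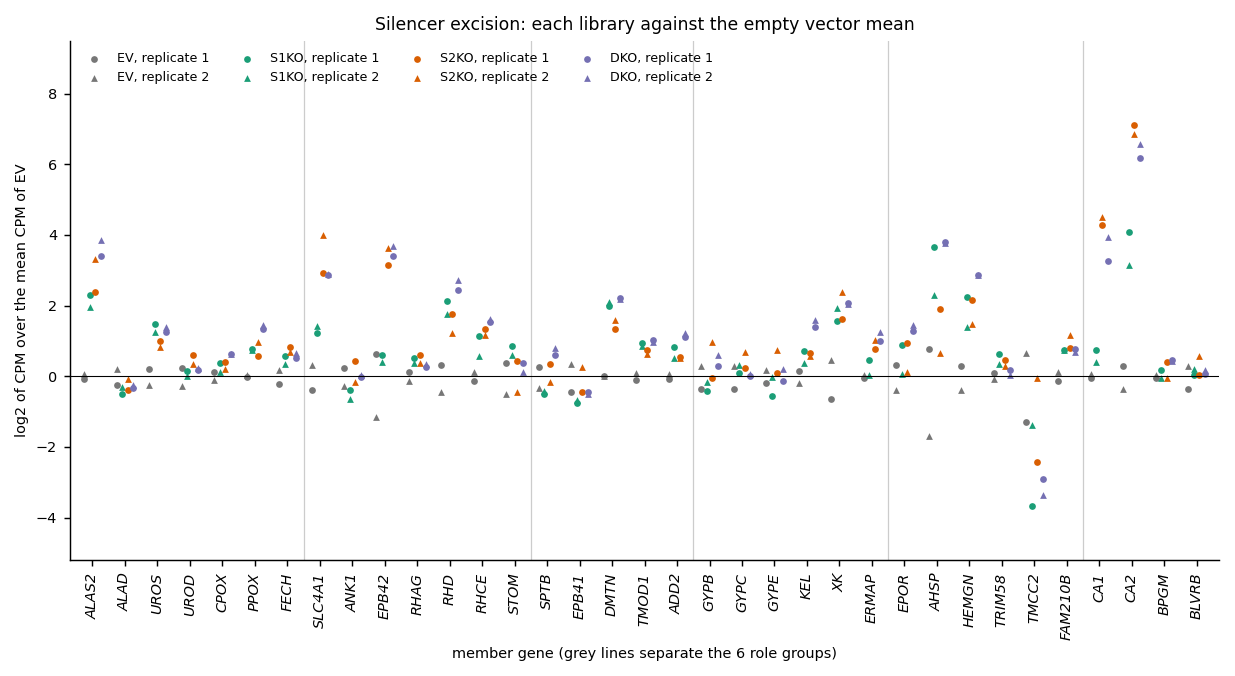
Each point is a library of the excision arm (circle replicate 1, triangle replicate 2) plotted as log2 of its CPM over the EV mean, with the 35 genes along the x axis in their 6 role groups. The DKO points of ALAS2, EPB42, AHSP, CA1 and CA2 lie above those of EV, and TMCC2 lies below 0 in all but EV replicate 2.

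In the heme pathway the largest DKO change was in ALAS2, at its entry. ALAS2 had 11.7 and 13.0 CPM (counts scaled to library size) in the EV libraries, 61.1 and 48.4 in the S1KO pair, 64.2 and 122 in S2KO, and 130 and 180 in DKO. Every excised library was above both EV libraries, and the DKO pair was above all others. In DKO the log2 change was 3.65 ± 0.36 (SE; adjusted p = 0.00229), or 12.6-fold. In S1KO it was 2.15 ± 0.34 (adjusted p = 0.0206) and in S2KO 2.92 ± 0.35 (adjusted p = 0.0119).

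PPOX, which makes protoporphyrin, stood at 29.2 and 30.6 CPM in EV and at 76.1 and 81.9 in DKO, a log2 change of 1.40 ± 0.17 (adjusted p = 0.00419). UROS, which closes the uroporphyrinogen ring, stood at 21.4 and 15.8 CPM in EV, 52.0 and 44.2 in S1KO and 43.9 and 49.2 in DKO. Both EV libraries of UROS lay below all 6 excised libraries, and it rose by 1.37 in S1KO (adjusted p = 0.0150) and 1.32 in DKO (adjusted p = 0.0103). The most abundant UROS transcript also differed: UROS-204 made up 41.5% of the gene's TPM in EV and 16.0% in DKO, and UROS-203 31.4% and 52.2%, shares for which no test was run.

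The other heme enzymes did not pass in DKO. CPOX, the coproporphyrinogen oxidase, had 53.1 and 45.5 CPM in EV against 76.2 and 76.2 in DKO (log2 0.63, adjusted p = 0.0607). FECH had 91.7 and 120 against 153 and 166 (log2 0.59, adjusted p = 0.0971). For both, the DKO libraries were above both EV libraries. UROD had 447 and 316 CPM in EV against 436 and 449, and ALAD, the second enzyme of the pathway, 17.9 and 24.3 against 16.8 and 17.8 (log2 -0.29, adjusted p = 0.474). UROD overlapped between the groups.

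Among the genes of the band 3 and Rh complex, the lowest expressed had the largest changes. EPB42, which stabilises the band 3 complex, had 0.696 and 0.203 CPM in the EV pair, 0.686 and 0.596 in the S1KO pair, 3.98 and 5.61 in S2KO and 4.72 and 5.81 in DKO. The S1KO libraries of EPB42 lay within the EV range, and the S2KO and DKO libraries were all above it. It rose by 3.41 in S2KO (adjusted p = 0.0409) and by 3.55 in DKO (adjusted p = 0.0137). SLC4A1, band 3 itself, had 0.291 and 0.478 CPM in EV, 2.90 and 6.12 in S2KO and 2.81 and 2.84 in DKO. Its log2 change was 3.54 ± 0.47 in S2KO (adjusted p = 0.0177) and 2.87 ± 0.46 in DKO (adjusted p = 0.0130). These levels rest on few counts: 63 for SLC4A1 and 72 for EPB42 over both EV libraries, which gives DKO over EV ratios of 7.30 (95% interval 5.57 to 9.71) and 11.9 (9.35 to 15.5) from counting error alone.

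RHD, which carries the D antigen, had 8.50 and 5.00 CPM in the EV pair, 29.6 and 23.0 in the S1KO pair, 22.7 and 15.7 in S2KO and 37.0 and 44.9 in DKO. All excised libraries were above the EV pair. The log2 change was 1.96 in S1KO (adjusted p = 0.0252) and 2.60 ± 0.33 in DKO (adjusted p = 0.00562). RHCE, the neighbouring gene for the C and E antigens, rose by 1.59 in DKO (adjusted p = 0.0111), from 5.29 and 6.37 CPM to 17.0 and 18.0. RHD and RHCE are near-identical in sequence, so the share of reads given to each is uncertain, and the leading RHCE transcript changed between groups: RHCE-204 held 47.3% of the gene's TPM in EV and 3.74% in DKO. RHAG, the glycoprotein both need at the surface, had 543 and 449 CPM in EV and 600 and 635 in DKO (log2 0.32, adjusted p = 0.296). ANK1 (ankyrin) and STOM (stomatin) overlapped between EV and DKO.

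Of the 5 skeleton genes DMTN, TMOD1 and ADD2 rose in DKO. DMTN, dematin, which bundles actin at the spectrin junctions, had 3.33 and 3.30 CPM in the EV pair, 13.1 and 14.1 in the S1KO pair, 8.39 and 9.97 in S2KO and 15.5 and 15.2 in DKO. The 4 groups of DMTN did not overlap with each other. It rose by 2.04 in S1KO (adjusted p = 0.00313), 1.47 in S2KO (adjusted p = 0.0149) and 2.21 in DKO (adjusted p = 0.00145). TMOD1, which caps the short actin filaments, rose by 0.90 in S1KO (adjusted p = 0.0193) and 1.00 in DKO (adjusted p = 0.00785), from 36.1 and 41.3 CPM in EV to 78.8 and 76.5 in DKO. ADD2, beta adducin, rose by 1.17 in DKO (adjusted p = 0.00645), from 43.9 and 48.2 CPM to 99.5 and 108. Beta spectrin itself, SPTB, had 45.7 and 30.0 CPM in EV and 57.0 and 66.1 in DKO (adjusted p = 0.158). Protein 4.1, EPB41, had 381 and 658 against 379 and 370 (adjusted p = 0.409).

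The blood group carriers split. XK, a membrane transporter-like protein, had 12.6 and 26.9 CPM in the EV pair, 57.8 and 75.9 in the S1KO pair, 61.0 and 103 in S2KO and 82.4 and 81.1 in DKO, and rose by 2.05 ± 0.41 in DKO (adjusted p = 0.0282). KEL, the Kell antigen protein that pairs with XK, rose by 1.50 ± 0.20 (adjusted p = 0.00669), from 16.0 and 12.7 CPM in EV to 37.4 and 43.5 in DKO. ERMAP, which carries the Scianna antigens, rose by 1.12 (adjusted p = 0.0178), from 46.5 and 49.6 CPM to 95.9 and 114. The 3 glycophorin genes of the set, GYPB, GYPC and GYPE, overlapped between EV and DKO, with log2 changes of 0.46, 0.03 and 0.05 (adjusted p = 0.532, 0.961 and 0.946).

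HEMGN, hemogen, a nuclear protein of erythroid precursors, had 80.6 and 50.5 CPM in the EV pair, 311 and 171 in the S1KO pair, 293 and 183 in S2KO and 479 and 474 in DKO. Every excised library was above EV, and DKO was above the rest. The log2 change in DKO was 2.86 ± 0.40 (adjusted p = 0.00779). AHSP, the chaperone of free alpha globin, had 2.90 and 0.525 CPM in the EV pair, 21.5 and 8.41 in the S1KO pair, 6.40 and 2.71 in S2KO and 23.7 and 23.2 in DKO. The EV pair of AHSP lay far apart, and S2KO overlapped with EV. AHSP rose by 3.78 ± 0.89 in DKO (adjusted p = 0.0495). FAM210B, a mitochondrial protein of erythroid iron handling, rose by 0.99 in S2KO (adjusted p = 0.0435) and 0.73 in DKO (adjusted p = 0.0471). EPOR, the erythropoietin receptor, had 12.7 and 7.78 CPM in EV and 25.1 and 27.9 in DKO (log2 1.37, adjusted p = 0.0895). TMCC2 went the other way without passing, with a mean of 11.9 ± 10.0 CPM (SD) in EV and 1.38 ± 0.303 in DKO. Both DKO libraries of TMCC2 were below both EV libraries, which lay far apart.

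Both red cell carbonic anhydrases, which hydrate CO2, were highest in S2KO. CA1 had 2.26 and 2.44 CPM in the EV pair, 3.91 and 3.13 in the S1KO pair, 46.0 and 53.4 in S2KO and 22.4 and 36.1 in DKO. S2KO and DKO were far above EV and S1KO, and S2KO was above DKO. CA1 rose by 4.40 ± 0.30 in S2KO (adjusted p = 0.00214), by 3.64 ± 0.29 in DKO (adjusted p = 0.00109), and by 3.05 ± 0.28 in DKO against S1KO (adjusted p = 0.00727). CA2 had 5 counts over both EV libraries, against 77 in S1KO, 605 in S2KO and 314 in DKO. Scaled for depth, these are ratios of 13.1 (95% counting interval 5.37 to 41.4), 128 (54.6 to 396) and 84.9 (36.0 to 263). CA2 passed in all these comparisons with EV (adjusted p = 0.0134, 0.00257 and 0.00120) and in DKO against S1KO (adjusted p = 0.0368). BPGM and BLVRB, the enzymes for 2,3-bisphosphoglycerate and biliverdin, did not pass in DKO.

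**Figure D2:**
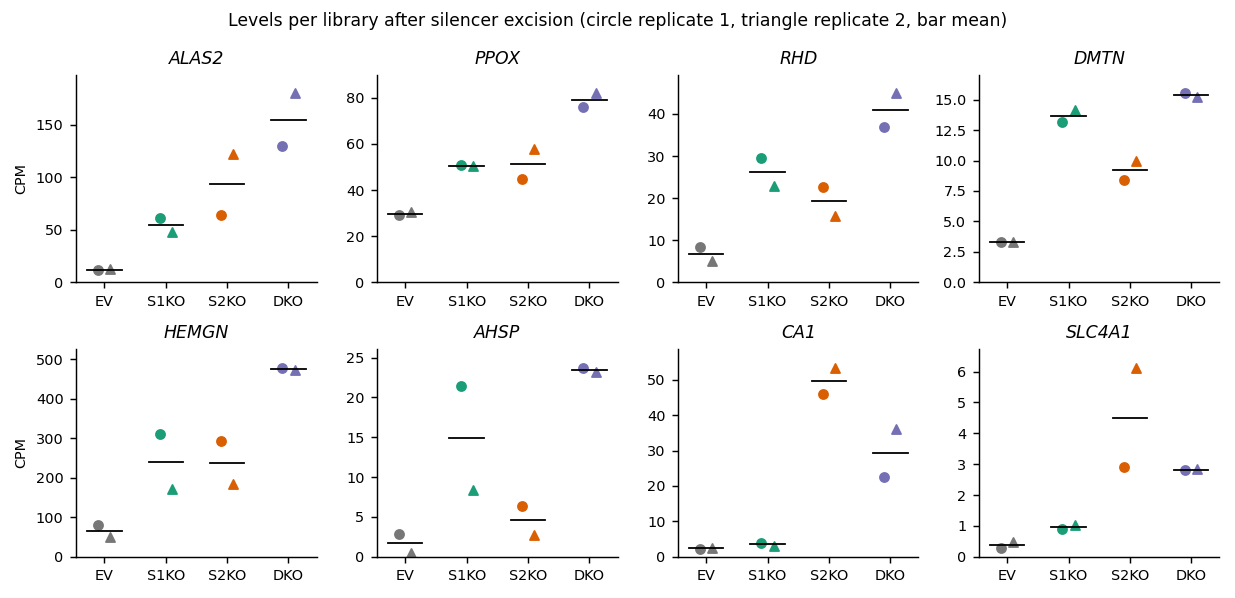
CPM per library (y axis, from 0) of 8 genes in EV, S1KO, S2KO and DKO, with circles for replicate 1, triangles for replicate 2 and bars for the mean. DMTN, PPOX and HEMGN are highest in DKO, while CA1 and SLC4A1 are highest in S2KO.

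In S1KO 6 of the 35 genes rose (17.1%, background 2.44% higher and 1.23% lower) and in S2KO 7 rose (20.0%, background 1.45% higher and 0.554% lower). None fell at an adjusted p under 0.05 in edgeR in either, and 18 had an unadjusted p under 0.05 in S1KO, all higher. The replicate number as a block changed this: in a fit without the DKO libraries, added after seeing the data, 18 genes were higher and 3 lower in S1KO, namely TMCC2 (log2 -2.23, adjusted p = 7.82e-05), EPB41 (-0.66) and ANK1 (-0.52). In S2KO that fit had 22 higher and 1 lower, TMCC2 (-0.94, adjusted p = 0.0135). The share of all genes called in that fit was not counted, so its larger numbers cannot be set against a background. Against S1KO, DKO had CA1 and CA2 higher and none lower, where 0.625% of all genes rose and 0.470% fell, and both calls were lost in fits without 1 library (highest adjusted p 0.0998 and 0.314). Against S2KO no gene of the set passed in edgeR in either direction, where 1.61% of all genes rose and 1.36% fell. At an unadjusted p under 0.05, 8 of them differed between DKO and S2KO, 7 higher and 1 (CA1) lower, and DESeq2 called 6. All 3 comparisons with EV share the same EV libraries.

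These excision counts depend on single libraries. Without DKO replicate 1 the 18 DKO calls were 8, without DKO replicate 2 they were 7, without EV replicate 1 they were 13 and without EV replicate 2 they were 15. ALAS2, PPOX, RHD, DMTN, HEMGN, CA1 and CA2 passed in all 12 alternatives of the DKO comparison. For S1KO, leaving out a library gave 1 to 3 calls, with DMTN alone holding throughout, and for S2KO 3 to 6, with CA1 and CA2 holding.

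Genes outside the set moved beside these. The summed CPM of 10 globin genes was 1805 to 4840 in EV, 8693 to 15470 in S1KO, 4983 to 11630 in S2KO and 16220 to 19260 in DKO. All 10 were tested in DKO, where 3 rose and none fell, with a median log2 change of 3.36 over the 10. Among the 3 was HBE1, embryonic epsilon globin, which rose by 5.57 in DKO (adjusted p = 0.00123). Over all tested genes 5.41% rose and 3.35% fell in DKO. Of 14 megakaryocyte markers, 9 were tested and 3 rose in DKO (GP1BB, THBS1 and TUBB1), and their summed CPM was 23.2 to 60.4 in EV and 107 to 131 in DKO, while GP1BA, PF4 and SELP were at 0 in DKO. Of 15 myeloid markers, 11 were tested and 1 rose, with a summed CPM of 131 to 175 in EV and 93.1 to 115 in DKO. Their part in the results for the 35 genes was not tested.

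The wider pathways were also counted. Of 27 tested genes of heme supply, transport and breakdown outside the set, 1 rose in DKO, ABCB6 (a porphyrin transporter; log2 0.97, adjusted p = 0.0173), and none fell. Of 28 other red cell membrane genes 3 rose, ABCG2 (log2 9.07), ACKR1 (the Duffy antigen carrier; log2 3.82) and CR1 (log2 1.09), and none fell. Of 14 erythroid transcription factors none rose and 1 fell, MYB (log2 -0.96, adjusted p = 0.0322). Over all tested genes 5.41% rose and 3.35% fell in DKO. No test compared these shares with that of the 35 genes.

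In the drug arm more of the 35 genes fell than rose with each drug at 72 h. With GSK343 7 of the 35 fell and 1 rose, where 3.31% of all tested genes fell and 9.12% rose. With X5050 10 fell and 1 rose, where 7.23% fell and 5.34% rose. With both drugs for 72 h 13 fell and 2 rose, where 17.3% fell and 19.2% rose. The median log2 change over the 35 genes was -0.48, -0.39 and -0.35. These comparisons share the DMSO libraries.

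**Figure D3:**
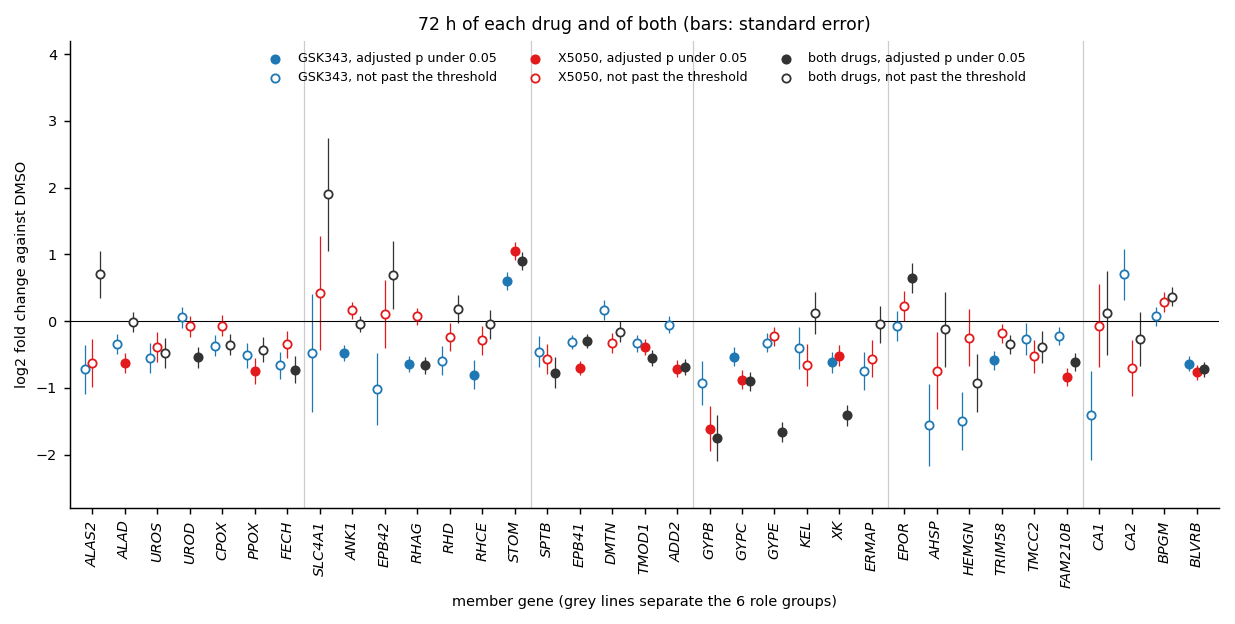
Log2 fold changes against DMSO at 72 h (y axis) for GSK343, X5050 and both drugs, with standard errors, for the 35 genes on the x axis. Filled points have an adjusted p under 0.05. STOM is above 0 with a filled point in all 3, and GYPE is filled with both drugs only.

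STOM, stomatin, a raft protein that binds band 3 and glucose transporters, rose with each treatment. It had 41.8 and 48.3 CPM with DMSO, 62.4 and 74.4 under GSK343, 104 and 81.9 under X5050 and 79.1 and 89.2 with both drugs for 72 h. Every treated library was above both DMSO libraries. The log2 changes were 0.60 ± 0.13 (adjusted p = 0.00805), 1.05 ± 0.13 (adjusted p = 0.000175) and 0.90 ± 0.13 (adjusted p = 8.17e-05). The call with GSK343 was lost without GSK343 replicate 2 (adjusted p = 0.168).

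BLVRB, the biliverdin reductase of red cells, and GYPC, glycophorin C, fell with each treatment. BLVRB had 238 and 267 CPM with DMSO, 171 and 153 under GSK343, 155 and 142 under X5050 and 154 and 152 with both drugs for 72 h. GYPC had 99.8 and 115 CPM with DMSO, 65.1 and 83.2 under GSK343, 54.5 and 62.3 under X5050 and 53.7 and 61.0 with both. No treated library of either gene reached the DMSO range. BLVRB fell by 0.64, 0.77 and 0.72 (adjusted p = 0.00143, 0.000479 and 0.000116), and GYPC by 0.53, 0.88 and 0.90 (adjusted p = 0.0198, 0.000932 and 0.000117). XK also fell in all 3, by 0.62, 0.52 and 1.41 (adjusted p = 0.0141, 0.0361 and 4.39e-06).

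With GSK343 the other falls were in RHAG (-0.64, adjusted p = 0.00301), RHCE (-0.80), ANK1 (-0.48) and TRIM58, a ubiquitin ligase of enucleating erythroblasts (-0.59). No heme enzyme passed: FECH, for example, had 120 and 106 CPM with DMSO and 82.5 and 60.2 with GSK343 (adjusted p = 0.0504). Without GSK343 replicate 2 the 8 calls became 3, and BLVRB was the call that held in all 12 alternatives. With the trend on GC content removed, 20 genes fell and 1 rose, and the share of all genes called in that fit was not counted.

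With X5050 the falls took in the skeleton and 2 heme enzymes. EPB41, protein 4.1, fell by 0.70 (adjusted p = 0.000567), from 753 and 840 CPM to 483 and 496. ADD2 fell by 0.71 (adjusted p = 0.00161), from 110 and 106 CPM to 73.0 and 58.8. FAM210B fell by 0.83 (adjusted p = 0.00117), from 176 and 166 to 109 and 82.9. The treated pairs of these genes were below both DMSO libraries. ALAD fell by 0.63 (adjusted p = 0.0131), PPOX by 0.75 (adjusted p = 0.0183), GYPB by 1.61 (adjusted p = 0.0109) and TMOD1 by 0.39 (adjusted p = 0.0479). Without DMSO replicate 1 the 11 calls became 7; STOM, EPB41, ADD2, GYPC, FAM210B and BLVRB passed in all 12 alternatives, and the calls in ALAD, PPOX, GYPB, TMOD1 and XK did not.

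With both drugs for 72 h the largest falls were in glycophorin genes. GYPE had 66.7 and 67.6 CPM with DMSO, 61.9 and 45.6 under GSK343, 59.5 and 55.2 under X5050 and 22.6 and 19.9 with both. The combination was below every other 72 h library. GYPE fell by 1.66 ± 0.15 (adjusted p = 6.72e-07) and GYPB, from 28.0 and 19.7 CPM to 8.84 and 5.34, by 1.75 ± 0.35 (adjusted p = 0.00203). GYPB and GYPE are close relatives in sequence, so the reads given to each are uncertain. Falls were also called in ADD2 (-0.69), RHAG (-0.66), TMOD1 (-0.56), FAM210B (-0.61), SPTB (-0.78) and EPB41 (-0.29), and among the heme enzymes in FECH (-0.73, adjusted p = 0.0138) and UROD (-0.54, adjusted p = 0.0127). EPOR rose by 0.64 (adjusted p = 0.0384). Of the 15 calls, 9 passed in all 12 alternatives. The falls in FECH, UROD and SPTB were each lost in 3, all of them fits without 1 DMSO or combination library (highest adjusted p 0.126, 0.111 and 0.200). EPB41 was lost in 6 (highest 0.217) and FAM210B without combination replicate 2 (0.0548). The rise in EPOR was also lost in 6, among them the fits without DMSO replicate 2 or either combination library (highest 0.38).

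ALAS2 differed between single and joint treatment. It had 61.5 and 63.4 CPM with DMSO, 42.9 and 32.7 under GSK343, 55.0 and 25.7 under X5050 and 130 and 73.0 with both for 72 h. Both single drugs lay below DMSO and the combination above it, none with an adjusted p under 0.05 (0.253 for GSK343, 0.169 for both). The difference between the joint change and the sum of the single changes was 2.05 ± 0.51 on the log2 scale (adjusted p = 0.0269). The combination pair of ALAS2 differs widely, and without its replicate 1 that difference was 1.58 (adjusted p = 0.0540).

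The same test of joint against summed changes passed for 9 genes, 7 positive and 2 negative, where 9.75% of all genes were positive and 9.04% negative. ALAD, with 28.2 and 33.4 CPM under DMSO and 33.1 and 28.0 with both, had a difference of 0.96 ± 0.21 (adjusted p = 0.00571). EPB41 had 0.72 (adjusted p = 0.00322), BLVRB 0.69 (adjusted p = 0.00667), PPOX 0.84 (adjusted p = 0.0409), RHD 1.02 (adjusted p = 0.0266) and RHCE 1.05 (adjusted p = 0.0265). GYPE had -1.11 ± 0.21 (adjusted p = 0.00193), a fall beyond the sum, and STOM -0.75 (adjusted p = 0.0118), a rise short of it. Without both-drug replicate 1 the 9 calls became 4, without GSK343 replicate 2 they became 5, and without X5050 replicate 1 they became 16.

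The combination was also set against each drug. Against GSK343 alone 6 of the 35 genes were higher and 6 lower (17.1% each, background 18.9% higher, 20.5% lower). ALAS2 (1.43), EPB42 (1.70) and RHD (0.78) were among the higher and GYPE (-1.34), XK (-0.79) and ADD2 (-0.64) among the lower. Against X5050 alone 3 were higher (8.57%), ALAS2 (1.33), ALAD (0.62) and EPB41 (0.41). The 4 lower (11.4%) were GYPE (-1.43), RHAG (-0.73), XK (-0.90) and UROD (-0.47), with a background of 17.5% higher and 12.8% lower. Against either drug the shares of the set were thus below those of all genes. With the GC trend removed the split against X5050 was 1 higher and 8 lower. X5050 against GSK343 had 3 higher (8.57%), RHAG (0.71), ANK1 (0.64) and STOM (0.44), and 5 lower (14.3%), led by ADD2 (-0.66). These shares were close to those of all genes, 6.85% higher and 14.3% lower. With the GC trend removed the split of the set became 8 higher and 2 lower. None of the higher calls of the combination held in every fit without 1 library. Its calls that passed in all 12 alternatives were lower ones, ADD2, GYPE and XK against GSK343 and RHAG, GYPE and XK against X5050. Between the single drugs RHAG, ANK1 and ADD2 passed in all 12. The counts moved with single libraries: against GSK343 they ran from 6, without GSK343 replicate 2, to 13; against X5050 from 4, without both-drug replicate 1, to 11, without X5050 replicate 2; and between the single drugs from 4, without either GSK343 library, to 15, without X5050 replicate 2.

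The strongest fall of the set came at 24 h of both drugs. At that time 22 of the 35 genes were lower than with DMSO and 1 was higher, that is 62.9% and 2.86%, where 21.1% of all genes were lower and 22.0% higher. The median log2 change of the set was -0.85, and -0.02 over all genes. All 6 glycophorin and blood group genes fell, as did 5 of 7 heme enzymes and 4 of 5 skeleton genes. Leaving out 1 library at a time gave 18 to 21 calls, and 17 of the 23 passed in all 12 alternatives, the 5 heme enzymes among them. The falls in GYPB, KEL, SPTB, TMOD1, RHD and HEMGN did not hold throughout: SPTB was lost in 6 alternatives, KEL and TMOD1 in 4, HEMGN in 3, and GYPB and RHD in 2, in each case with fits that left out a DMSO or a 24 h library.

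**Figure D4:**
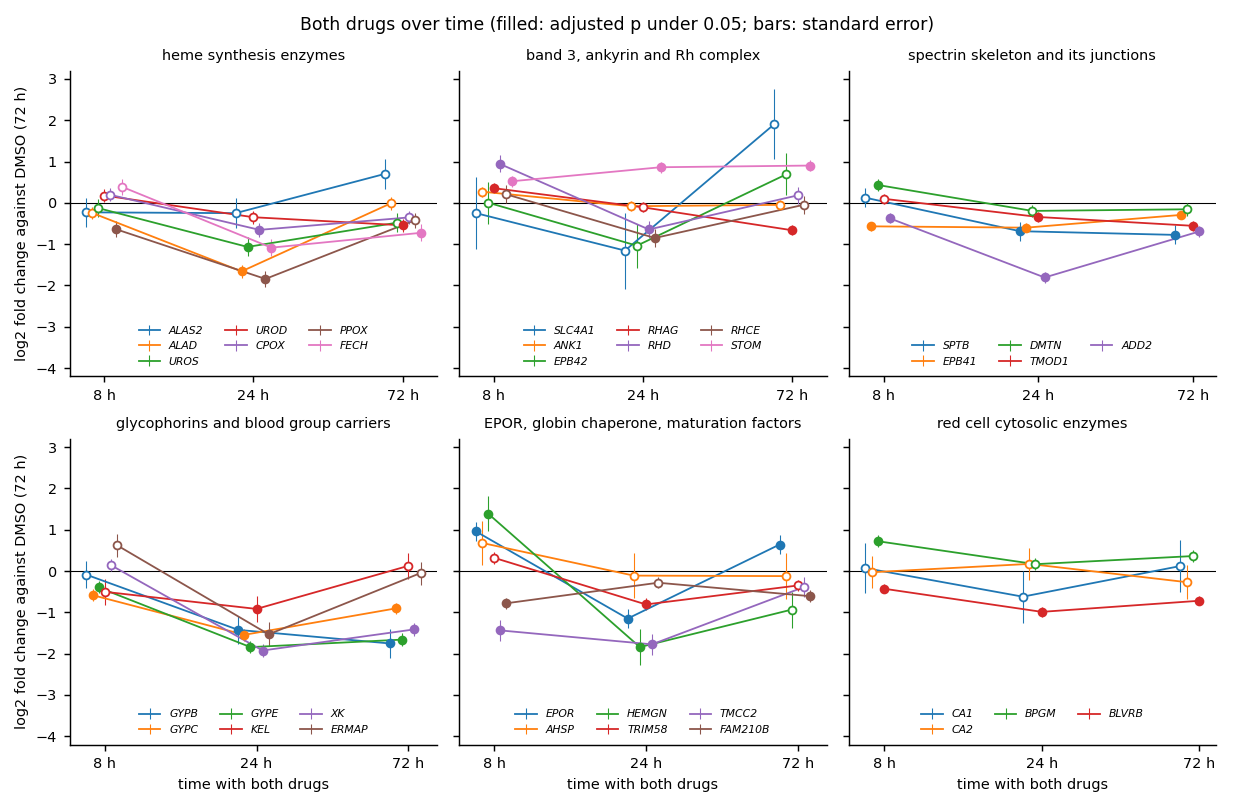
Log2 fold change against DMSO (y axis, standard errors as bars) after 8, 24 and 72 h of both drugs (x axis, not to scale), in a panel for each role group. Filled points have an adjusted p under 0.05. Most genes are lowest at 24 h, and STOM is above 0 at each time.

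Of the heme enzymes, PPOX had 42.8 and 28.2 CPM with DMSO, 21.9 and 23.6 at 8 h, 10.8 and 9.02 at 24 h and 30.7 and 22.2 at 72 h. ALAD, which joins aminolevulinate molecules into porphobilinogen, had 28.2 and 33.4 with DMSO, 25.8 and 26.2 at 8 h, 9.57 and 9.95 at 24 h and 33.1 and 28.0 at 72 h. For both genes the 24 h libraries were the lowest of all. PPOX fell by 1.84 (adjusted p = 3.13e-06) and ALAD by 1.66 (adjusted p = 7.31e-07) at 24 h. Smaller falls were called in FECH (adjusted p = 0.00092, with 54.6 and 51.9 CPM at 24 h), UROS (-1.07) and CPOX (-0.65). ALAS2 stayed at 54.5 and 50.6 CPM at 24 h (adjusted p = 0.614), and UROD at 188 and 195 (adjusted p = 0.0838).

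Among membrane genes, ADD2 fell furthest beyond its error at 24 h: 110 and 106 CPM with DMSO, 88.7 and 77.8 at 8 h, 31.9 and 29.9 at 24 h and 64.8 and 68.9 at 72 h. XK had 115 and 105 with DMSO, 126 and 116 at 8 h, 29.2 and 28.7 at 24 h and 46.7 and 35.9 at 72 h. Both were lowest at 24 h and below DMSO at 72 h. ADD2 fell by 1.81 ± 0.13 (adjusted p = 2.99e-08), XK by 1.92 ± 0.16 (adjusted p = 1.7e-07), GYPE by 1.84 (adjusted p = 1.74e-07), GYPC by 1.54 (adjusted p = 5.4e-07) and ERMAP by 1.53 (adjusted p = 0.00193). RHD, RHCE, GYPB, KEL, SPTB, TMOD1 and EPB41 fell by 0.34 to 1.43, and BLVRB and TRIM58 by 0.99 and 0.81. STOM rose by 0.86 (adjusted p = 9.1e-05).

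HEMGN had 83.5 and 111 CPM with DMSO, 272 and 238 at 8 h, 29.1 and 25.1 at 24 h and 57.2 and 44.5 at 72 h. EPOR had 18.2 and 12.8 with DMSO, 27.8 and 32.3 at 8 h, 6.85 and 7.08 at 24 h and 26.0 and 22.3 at 72 h. Both were above DMSO at 8 h and below it at 24 h. HEMGN rose by 1.39 at 8 h (adjusted p = 0.0352) and fell by 1.84 at 24 h (adjusted p = 0.0130), though the 8 h call was lost whichever of the 4 libraries was left out (highest adjusted p 0.193) and the 24 h call without DMSO replicate 2 or either 24 h library (highest 0.0914). EPOR rose by 0.96 at 8 h (adjusted p = 0.00311) and fell by 1.15 at 24 h (adjusted p = 0.00119), and both calls held in all 12 alternatives. TMCC2, an endoplasmic reticulum protein of erythroid cells, fell by 1.44 at 8 h (adjusted p = 0.000284) and 1.77 at 24 h (adjusted p = 5.21e-05), from 16.6 and 20.4 CPM to 6.47 and 7.17 and then 5.15 and 5.64.

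At 8 h the set was divided, with 7 genes higher and 8 lower than with DMSO (20.0% and 22.9%), close to the background of 21.8% higher and 21.2% lower. Beside HEMGN and EPOR, the higher genes were RHD (0.94, adjusted p = 0.00169), BPGM (0.72, adjusted p = 0.000714), STOM (0.52), DMTN (0.43) and RHAG (0.35). The lower were TMCC2, FAM210B (-0.78, adjusted p = 0.000273), PPOX (-0.64), GYPC (-0.58), EPB41 (-0.57), BLVRB (-0.43), GYPE (-0.40) and ADD2 (-0.38). RHD, EPB41, EPOR, TMCC2, FAM210B and BPGM passed in all 12 alternatives.

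From 24 to 72 h of both drugs 15 of the 35 genes rose and 1 fell, that is 42.9% and 2.86%, where 24.1% of all genes rose and 21.8% fell. ALAD rose by 1.65 ± 0.16 (adjusted p = 1.08e-06), EPOR by 1.79 ± 0.24 (adjusted p = 2.56e-05), PPOX by 1.42 (adjusted p = 3.58e-05), ADD2 by 1.11 (adjusted p = 4.36e-06), ERMAP by 1.48 (adjusted p = 0.00213) and TMCC2 by 1.39 (adjusted p = 0.000412). The other rises were in RHD, RHCE, EPB42, EPB41, KEL, XK, GYPC, TRIM58 and SLC4A1. RHAG fell by 0.56 (adjusted p = 0.00159), with 273 and 248 CPM at 24 h and 184 and 170 at 72 h. The change in SLC4A1, 3.06 ± 0.90 (adjusted p = 0.0259), came from 1.50 and 1.57 CPM at 24 h and 20.5 and 5.18 at 72 h, and was lost without both-drug 72 h replicate 1 or either 24 h library (highest adjusted p 0.149). With the GC trend removed the split was 9 rises and 5 falls. Without 24 h replicate 1 the 16 calls became 8, and without 24 h replicate 2 or 72 h replicate 1 they became 10; ALAD, PPOX, ADD2, ERMAP and EPOR passed in all 12 alternatives.

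Related genes outside the set were counted in the drug arm too. Of 25 tested genes of heme supply, transport and breakdown, 12 fell and 5 rose at 24 h, and 10 fell and 5 rose at 72 h; ALAS1, the housekeeping form of the first enzyme, rose by 1.01 at 72 h (adjusted p = 6.89e-06). Of 28 other red cell membrane genes, 11 fell and 5 rose at 24 h and 8 fell and 5 rose at 72 h, with SLC29A1, a nucleoside carrier, at -1.39 and -0.40. Over all tested genes 21.1% fell and 22.0% rose at 24 h, and 17.3% fell and 19.2% rose at 72 h. Of 13 erythroid transcription factors, 10 fell at 24 h and 9 fell and 1 rose at 72 h, and 10 rose and 1 fell between these times. KLF1 fell by 3.12 at 24 h (adjusted p = 8.11e-05) and 1.12 at 72 h (adjusted p = 0.0209), and GATA1 by 0.93 (adjusted p = 1.22e-05) and 0.56 (adjusted p = 0.00143).

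The globins differed by treatment. Of 8 tested, 4 fell with GSK343 and the other 4 did not pass, and 1 rose and 1 fell with X5050. With both drugs 3 rose and 1 fell at 8 h, 3 rose and 1 fell at 24 h, and 7 rose and 1 fell at 72 h. Their summed CPM was 1226 to 1308 with DMSO, 2450 to 2925 at 8 h, 2577 to 2607 at 24 h and 3153 to 4347 at 72 h. Markers of other lineages moved too: of 7 tested megakaryocyte markers 4 rose and 1 fell at 72 h, with a summed CPM of 27.4 to 35.9 with DMSO and 59.8 to 72.7 with both drugs, while GP1BB, PPBP and SELP were at 0 in the 72 h libraries. The fibroblast and epithelial markers summed to 550 to 601 CPM with DMSO and 1151 to 1274 at 72 h, with 4 of 8 tested higher and 1 lower. Their part in the results for the 35 genes was not tested.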

How the data were processed

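RNA-seq was measured in 20 K562 libraries, 2 for each of 10 groups taken from the sample titles. Per the labels, stranded total RNA libraries were made after rRNA removal. The submitters' processing notes name Trimmomatic 0.38, STAR 2.7.3a, kallisto 0.44.0, sleuth 0.29.0, DESeq2 0.29.0 and the build hg19; the annotation release is not given in the sources used here. The authors deposited STAR gene counts for the drug arm, and the reverse-strand column was taken, which exceeded the forward column 8.01 to 9.77 times. For the excision arm they deposited kallisto estimated counts and TPM per transcript. Estimated counts were summed per gene through GENCODE 29, which matched 182238 of 215170 transcripts (84.7%), and rounded. CPM are counts scaled to TMM-adjusted library size. TPM was used to set genes against each other.

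Each arm was fitted apart with all its groups in edgeR 4.0.16 (R 4.3.3, limma 3.58.1) with filterByExpr, TMM and the robust quasi-likelihood test. Benjamini-Hochberg adjustment ran across every tested gene of the arm, at a threshold of 0.05. Standard errors come from the size of the log2 change and the F statistic and are approximate. The biological coefficient of variation was 0.129 for the drugs and 0.323 for the excisions. With 2 libraries a group the smallest p of an exact permutation test is 0.333, so the p-values depend on edgeR's variance model and measure the spread between these libraries. Intervals of count ratios cover counting error only.

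Alternatives were RLE size factors, no filter, a replicate block, removal of the GC trend with and without that block, DESeq2 1.42.0, unstranded or length-scaled counts, only the groups compared, the excision fits without DKO, and each library left out. A replicate block without the DKO libraries was added after seeing the data. Simulated counts were used to see how many known changes each fit finds. Each simulation changed 100 genes 2-fold and 100 genes 4-fold. In the data 1152 genes were higher and 714 lower in DKO against EV. With fewer changed genes the adjustment is stricter, so recovery in the data may be higher than in the simulation. For DKO against EV, 7 of 100 genes changed 2-fold were recovered, and 74 of 100 changed 4-fold. For both drugs at 72 h against DMSO, 85 and 99 of 100 were recovered. Unchanged genes that were called numbered 12 and 11. A gene that did not pass in DKO against EV can thus still have changed 2-fold.

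The 35 genes and the other lists were chosen with earlier results of these data known. Values per library are given for called genes, lowest adjusted p first, and for heme enzymes that were not called, and at most 6 called genes of each other list are named. Upstream sequences are from RefSeq (GRCh38.p14) and were found for 27 of the 35 genes.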

Additional observations from a re-analysis of the deposited data

Results flagged for a closer look

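For 9 genes of the set the change with both drugs at 72 h differed from the sum of the changes with each drug, by the interaction term of the model (edgeR, adjusted p under 0.05). The difference was positive for ALAS2 (2.05 on the log2 scale), RHCE (1.05), RHD (1.02), ALAD (0.96), PPOX (0.84), EPB41 (0.72) and BLVRB (0.69). It was negative for GYPE (-1.11) and STOM (-0.75). These are 20.0% of the set positive and 5.71% negative, where 9.75% of all tested genes were positive and 9.04% negative. ALAD, EPB41 and GYPE kept the call in all 16 alternatives, and the others lost it in at least 2.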

How the results depend on the processing

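Counts are of the 35 genes called. The share of all genes called was counted for the main fit only, so counts from the alternatives have no background beside them. With all libraries, GSK343 had 8 calls and had 17 with no filter, 15 with the replicate block, 21 with the GC trend removed, 26 with that and the block, 13 in DESeq2 and 5 with only the groups compared. X5050 (11) had 7 with only the groups compared. With the GC trend removed and the block, both drugs against GSK343 (12) had 19, against X5050 (7) had 13, and X5050 against GSK343 (8) had 16. The interaction (9) had 14 with the block and 5 with only the groups compared. S1KO (6) had 12 with the block, 11 with GC removal and the block, 13 in DESeq2, 2 with only the groups compared, 2 without the DKO libraries and, in the fit added after seeing the data, 21 with the block and without DKO (18 higher; TMCC2, EPB41 and ANK1 lower). S2KO (7) had 14 with the block, 16 in DESeq2, 3 without the DKO libraries, 23 with the block and without DKO (22 higher; TMCC2 lower), and 0 in edgeR with only the groups compared, where 17 had an unadjusted p under 0.05. DKO against S1KO (2) had 4 with GC removal and the block, 9 in DESeq2, 1 with length-scaled counts and 6 with only the groups compared. DKO against S2KO (0) had 4 with the block, 2 with GC removal and the block and 6 in DESeq2.

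Replicate numbers paired the libraries in part. Deviations of same-numbered libraries correlated at 0.488 to 0.622 among EV, S1KO and S2KO, at -0.084 to -0.059 between those and DKO, and at -0.055 to 0.233 in the drug arm, so the number was not taken as a shared origin.

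Leaving out each library gave 3 to 10 calls for GSK343, 7 to 13 for X5050, 11 to 15, 18 to 21 and 10 to 13 for both drugs at 72, 24 and 8 h, 8 to 17 for 72 against 24 h, 6 to 13 and 4 to 11 for both against GSK343 and X5050, 4 to 15 for X5050 against GSK343, 4 to 16 for the interaction, 1 to 3 for S1KO, 3 to 6 for S2KO, 7 to 15 for DKO, 0 to 1 for DKO against S1KO and 0 to 0 against S2KO. A lone library is assumed to vary like the other groups. Of 1946 values of named genes, none changed direction, 1600 stayed past the threshold and 346 did not. Depth limits CA2, SLC4A1 and EPB42 in the EV libraries.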
